A study of Mus musculus with 6 samples.

Results

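The genes described here make, break down and hold glycogen in the liver. They were chosen by name as 9 genes, namely Gys2, Gyg, Gbe1, Ugp2, Pygl, Phka2, Ppp1r3b, Ppp1r3c and Stbd1, and every probe set annotated to a single one of them was taken. The rule found 8 of the 9 genes, with 14 of the 22626 probe sets that are no controls; Ppp1r3b was not analysed here. Liver RNA came from 6 male Mus musculus aged 12 weeks, each on 1 Affymetrix array: 3 chromogranin A knockout mice (Chga KO), which lack the secretory granule protein and prohormone Chga, and 3 wild-type mice (WT). Both groups carry the same literature reference to the knockout line. The labels give neither the genetic background nor the feeding state or the hour of dissection, nor whether a group shared a litter or a preparation, so the p-values speak only of the scatter among these 6 arrays.

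Glycogen is the branched glucose store of hepatocytes, filled after meals and drawn down between them. Glucose 1-phosphate is activated to UDP-glucose by Ugp2, the self-glucosylating primer glycogenin (Gyg) starts a chain, the liver glycogen synthase Gys2 lengthens it and the branching enzyme Gbe1 adds branches. The liver phosphorylase Pygl releases glucose 1-phosphate after phosphorylase kinase, of which Phka2 is the liver alpha subunit, has activated it. Protein phosphatase 1 turns synthase on and phosphorylase off and is brought to the particle by targeting subunits such as Ppp1r3c and Ppp1r3b, while Stbd1 binds glycogen and is thought to guide it to lysosomes.

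Values are linear intensities in arbitrary units, scaled by the authors to a common level per array. Changes are Chga KO minus WT on log2(intensity + 16), a scale that understates changes of dim probe sets, with the standard error (SE) of the limma fit over the 13576 probe sets in the upper 60% by mean signal. Benjamini-Hochberg adjustment ran over all 13576, and adjusted p-values under 0.05 were called. Of the 14 glycogen probe sets, 13 were kept. As a background reference served, per array, the intensity that 95% of 27 bacterial control probe sets stay under; between 64.4% and 74.7% of probe sets exceeded it in Chga KO and between 69.2% and 76.9% in WT. RNA quality, read as the 5′ to 3′ ratio of GAPDH control signal, gave 1.23 to 1.29 in Chga KO and 1.25 to 1.29 in WT. The same ratio for beta-actin was 0.351 to 0.366 in Chga KO and 0.356 to 0.366 in WT, so its 5′ signal was the lower one in every array. Chga was above the background reference in 1 of 3 arrays of each group and was removed as dim, so it does not check the labels. Pearson's r between arrays ran from 0.964 to 0.967 within Chga KO, from 0.970 to 0.974 within WT and from 0.960 to 0.967 across groups.

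Stbd1 was the only glycogen gene whose transcript passed the test. It fell to 0.643 of its WT signal, while the synthase Gys2 was lower without passing, and the primer, the branching enzyme, the UDP-glucose enzyme, the phosphorylase and the kinase subunit did not pass in either direction. In all, 1 of 13 kept probe sets was called, against 0.376% of all kept probe sets (0.184% lower and 0.192% higher). At an unadjusted p under 0.05 there were 3 of the 13, against 9.97% of all. The groups did not overlap in 2 of the 13, both lower in Chga KO, where 8.12% of all kept probe sets were lower without overlap and 7.44% higher. The median change was 0.06 over the 13 and -0.02 over all kept probe sets, with 7 of the 13 higher and 6 lower.

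**Figure D1:**
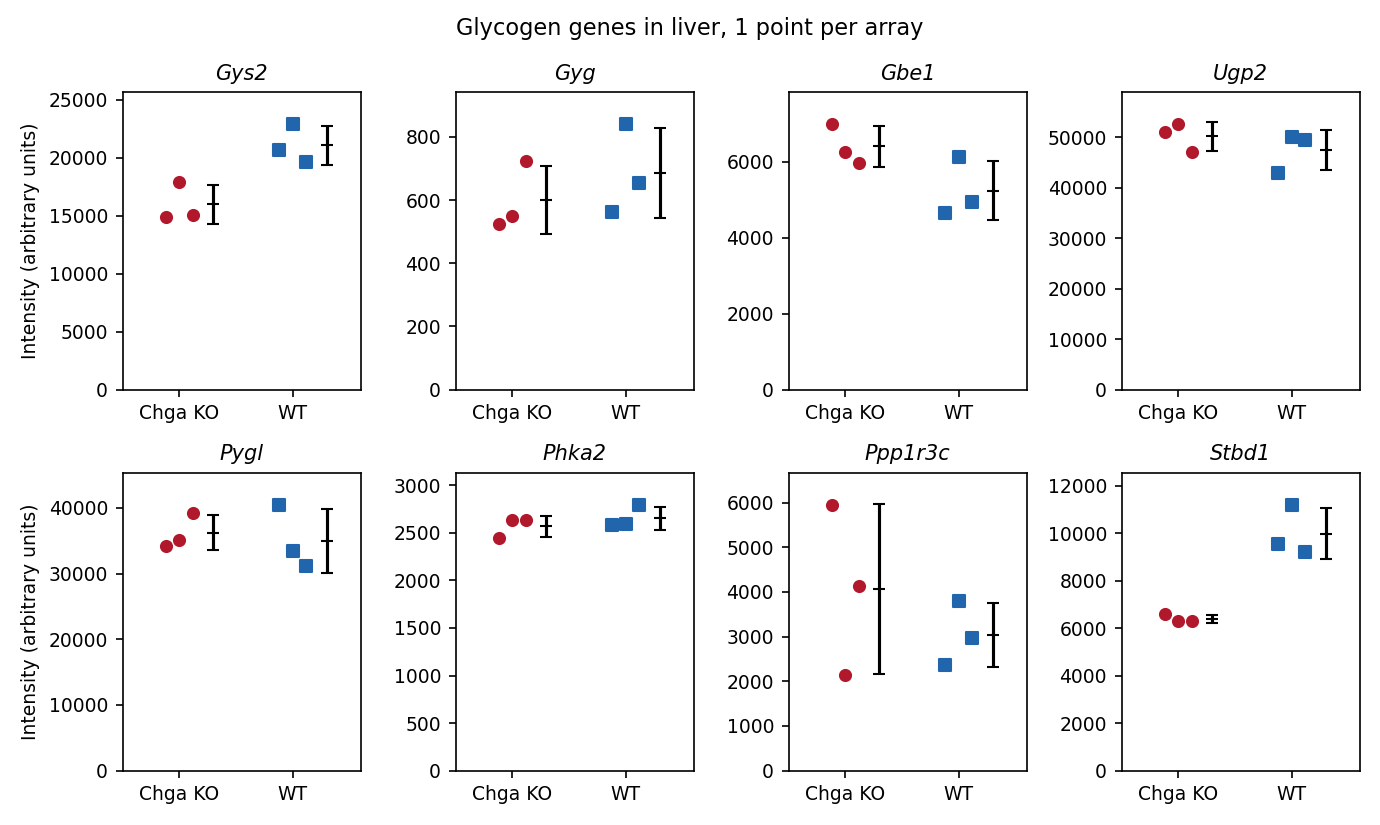
Intensity in arbitrary units (linear axis from 0) of the brightest probe set of each of the 8 glycogen genes, with 1 point per array, Chga KO left and WT right; black bars show the mean ± SD of 3 arrays. The 3 Chga KO arrays lie below the 3 WT arrays for Gys2 and Stbd1, and the groups overlap for the other 6 genes.

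Stbd1, whose product has a carbohydrate-binding domain of the starch-binding type and a motif that binds GABARAP-family proteins, read 6593, 6292 and 6301 in the Chga KO arrays, against 9543, 11198 and 9231 in the WT arrays. All 3 Chga KO arrays were below all 3 WT arrays, and the Chga KO arrays lay close together. The mean was 6395 ± 171 in Chga KO and 9991 ± 1057 in WT (SD, n = 3 each), a coefficient of variation of 2.68% in Chga KO and 10.6% in WT. The log2 change was -0.64 ± 0.11 (SE; limma, adjusted p = 0.0413), with a 95% interval of the fold from 0.542 to 0.762. By p-value it was probe set 47 of the 51 called. The call was lost in each of the 6 fits that left out 1 array (adjusted p from 0.062 to 0.131), after median centring (0.0721) and without the intensity trend in the variance (0.257), with a change between -0.69 and -0.55 throughout. As a log2 ratio to Pygl within each array, which a common scaling of the array hardly alters and which was added after the values had been seen, the mean difference of Stbd1 was -0.69, given as a description with no test. In whole liver, fewer cells of a type and less RNA per cell cannot be told apart.

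The 250 bases before the annotated start of Stbd1 are shown because it was the called gene, with those of Gabarapl1, whose protein Stbd1 binds and whose probe sets are described further on. Both are from RefSeq (GRCm38.p6, plus strand), at chr5:92602801-92603050 for Stbd1 and chr6:129532942-129533191 for Gabarapl1, 5′ to 3′, with capitals marking the Sp1 box GGGCGG on either strand.
Stbd1: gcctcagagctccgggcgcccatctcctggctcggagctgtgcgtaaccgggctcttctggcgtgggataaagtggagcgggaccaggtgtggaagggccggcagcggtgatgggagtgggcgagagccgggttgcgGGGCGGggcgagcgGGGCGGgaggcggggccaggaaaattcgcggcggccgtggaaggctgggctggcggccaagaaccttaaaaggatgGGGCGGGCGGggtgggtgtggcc
Gabarapl1: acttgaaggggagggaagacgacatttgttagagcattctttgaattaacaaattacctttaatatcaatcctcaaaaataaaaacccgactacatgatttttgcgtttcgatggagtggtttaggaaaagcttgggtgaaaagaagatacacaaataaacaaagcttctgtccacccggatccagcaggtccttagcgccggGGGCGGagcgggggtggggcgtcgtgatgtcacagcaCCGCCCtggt
The Stbd1 window holds 4 Sp1 boxes, the last of which overlap each other, and 71.2% G or C; the Gabarapl1 window holds 2, and 46.8% G or C. Of 32851 RefSeq promoter windows of this length, 32.7% hold at least 1 Sp1 box. Of the other motifs searched on both strands, the forkhead motif GTAAACA (3.17% of all windows), the E box CACGTG (6.02%), the cAMP response element core TGACG (17.8%) and the CCAAT box (33.9%) had no match in these windows. The promoter table held 8 windows of 7 of the 9 glycogen genes. An Sp1 box was in 6 of the 8, a CCAAT box in 2, an E box in 1 (Ppp1r3c), the cAMP core in 1 (Pygl) and the forkhead motif in 0. These matches describe letters only.

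Among the synthesis genes, Gys2, the enzyme that adds glucose units in the liver, had the lowest change. Its only probe set read 14922, 17946 and 15087 in Chga KO arrays, against 20678, 22924 and 19617 in WT arrays. Every Chga KO array was below every WT array, and the nearest pair lay 17946 against 19617. The mean was 15985 ± 1700 in Chga KO and 21073 ± 1689 in WT (SD, n = 3 each), and the log2 change of -0.40 ± 0.11 (SE, fold 0.758) did not pass (limma, adjusted p = 0.181). It did not pass under any of 16 alternatives of the processing either (adjusted p from 0.145 to 0.507), and the change stayed between -0.49 and -0.34. In the ratio to Pygl within each array the mean difference was -0.46, and the nearest arrays were level, at -0.244 in Chga KO replicate 2 and -0.242 in WT replicate 1 relative to the WT mean.

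Gbe1, which makes the branch points, was on the other side of 0. It read 6997, 6249 and 5964 in Chga KO arrays, against 4659, 6124 and 4941 in WT arrays, so that 1 WT array lay inside the Chga KO range. The log2 change was 0.30 ± 0.13 (SE, n = 3 per group; limma, adjusted p = 0.501), and its 95% interval began at 0.001. Its unadjusted p of 0.0496 was among those under 0.05 together with Stbd1 and Gys2.

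Ugp2 had 5 kept probe sets, which did not move together, and none passed (adjusted p from 0.667 to 0.988). The brightest, 1434486_x_at, read 50922, 52622 and 46998 in Chga KO arrays, against 42974, 50037 and 49445 in WT arrays, a log2 change of 0.08 ± 0.09. Changes of the 5 ran from -0.26 to 0.11, 3 higher and 2 lower. The largest departure, in 1426460_a_at, came with the widest relative WT spread of the 5, with 5667, 5134 and 4569 in Chga KO arrays against 6093, 7862 and 4750 in WT arrays, and its change of -0.26 was -0.08 without WT replicate 2 and -0.44 without WT replicate 3. For the brightest probe set the 95% interval ran from -8.06% to 21.8%.

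Gyg, the primer protein, gave a signal in the middle of the array, at percentile 52.0 by mean signal. It read 525, 550 and 724 in Chga KO arrays, against 563, 841 and 653 in WT arrays, and the groups overlapped. With a log2 change of -0.18 ± 0.27 its interval, from -0.78 to 0.41, is wide. The value ran from -0.03 without WT replicate 2 to -0.32 without Chga KO replicate 3, and was -0.10 without Chga KO replicate 1 and -0.31 without WT replicate 1.

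**Figure D2:**
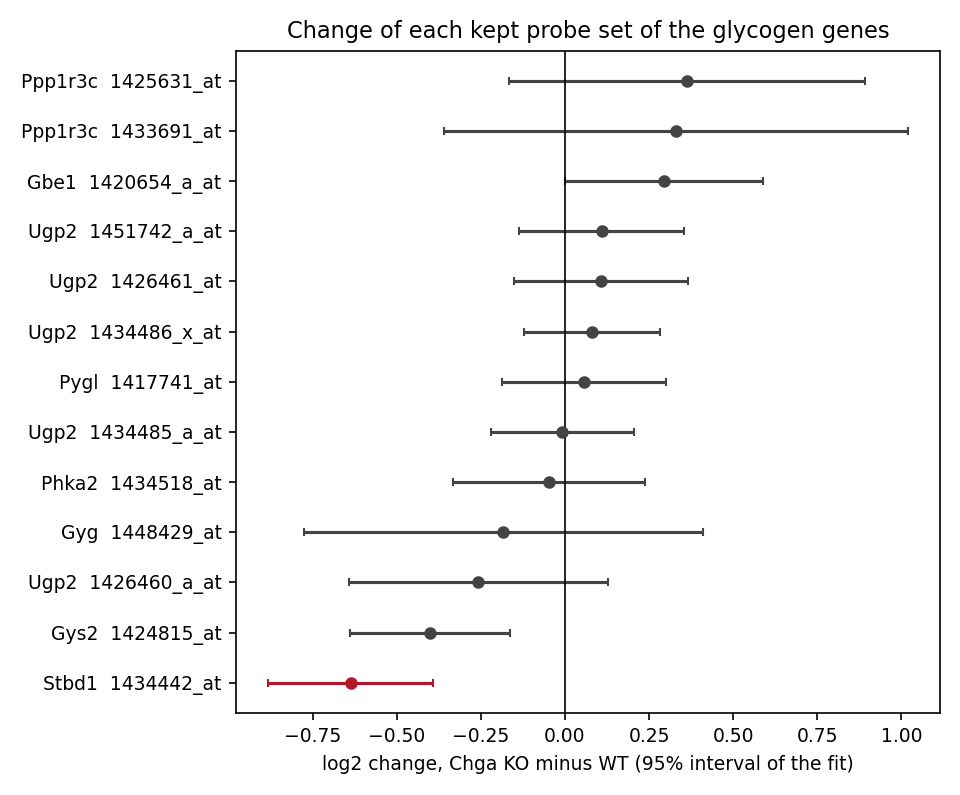
log2 change (Chga KO minus WT) of each of the 13 kept probe sets of the glycogen genes, with the 95% interval of the limma fit; red marks an adjusted p under 0.05. Stbd1 alone is red at -0.64, Gys2 lies at -0.40 with its interval below 0, and the intervals of all others but Gbe1 include 0.

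On the breakdown side, Pygl, the liver phosphorylase, read 34267, 35169 and 39290 in Chga KO arrays, against 40452, 33397 and 31167 in WT arrays. The highest and the lowest of the 6 values were both WT. Its log2 change was 0.06 ± 0.11 (SE; limma, adjusted p = 0.903), with a 95% interval from -12.2% to 23.1%. Phka2, the subunit through which the liver kinase of Pygl is regulated and whose gene is mutated in a human X-linked liver glycogen storage disease, had 2 probe sets. The kept one, 1434518_at, read 2445, 2632 and 2630 in Chga KO arrays, against 2580, 2591 and 2794 in WT arrays, with a coefficient of variation of 4.18% in Chga KO and 4.54% in WT. Its change of -0.05 ± 0.13 had an interval from -20.5% to 17.9%. The other, 1430492_at, was removed as dim: it ran from 41.8 to 48.1 in Chga KO and from 23.3 to 50.9 in WT, below the background reference on every array.

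Ppp1r3c, also called protein targeting to glycogen, brings the phosphatase to the particle. Its brighter probe set, 1433691_at, read 5949, 2149 and 4124 in Chga KO arrays, against 2356, 3790 and 2962 in WT arrays. Chga KO replicate 2 was the lowest of the 6 arrays and Chga KO replicate 1 the highest, a coefficient of variation of 46.7% in Chga KO and 23.7% in WT. The log2 change of 0.33 ± 0.31 (SE; limma, adjusted p = 0.773) was -0.001 without Chga KO replicate 1 and 0.73 without Chga KO replicate 2. The second probe set, 1425631_at, read 1405, 1059 and 953 in Chga KO arrays, against 796, 1141 and 724 in WT arrays, a change of 0.36 ± 0.24 that did not pass (adjusted p = 0.657) and that was 0.20 without Chga KO replicate 1, 0.23 without WT replicate 3 and 0.56 without WT replicate 2. In it, too, Chga KO replicate 1 was the highest array, but Chga KO replicate 3 was the lowest of its group.

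A list of 32 other genes of glycogen metabolism was set beside these. Of them 23 had a probe set of their own, 16 were kept by their brightest probe set, and 9 were not analysed here. In the kept 16, 0 passed the limma test, against 0.423% of all 8047 genes by brightest kept probe set; 2 had an unadjusted p under 0.05, against 10.3%, and the groups of 1 were lower without overlap, against 7.84%. Their median change was 0.01, beside -0.02 over all genes, with 9 higher and 7 lower.

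Gabarapl1, a ubiquitin-like protein of autophagosome membranes that Stbd1 binds, had the lowest change of the 16. Its brighter probe set, 1416419_s_at, read 25395, 30665 and 27631 in Chga KO arrays, against 38893, 41664 and 36918 in WT arrays. The other, 1416418_at, read 12190, 13864 and 14208 in Chga KO arrays, against 22194, 18150 and 18214 in WT arrays. In both, every Chga KO array lay below every WT array. The changes of -0.49 ± 0.10 and -0.54 ± 0.11 (SE, n = 3 per group) did not pass (limma, adjusted p = 0.0635 and 0.0771). The first passed after quantile normalization (0.0424) and in none of the other 15 alternatives, the second in none of 16. Probes of a set ending in _s_at can match several transcripts, so related transcripts may add to the first signal.

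**Figure D3:**
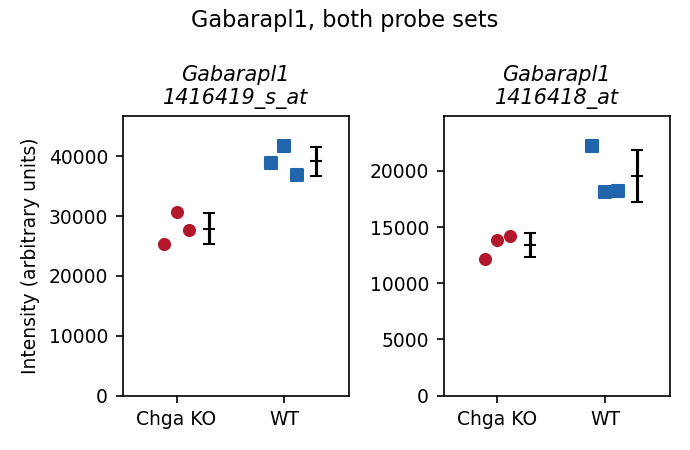
Intensity in arbitrary units (linear axis from 0) of both Gabarapl1 probe sets, with 1 point per array, Chga KO left and WT right; black bars show the mean ± SD of 3 arrays. In each panel the 3 Chga KO arrays lie below the 3 WT arrays.

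G6pc, the catalytic subunit that frees glucose from glucose 6-phosphate, had the highest change of the 16, 0.93 ± 0.39 (SE; limma, adjusted p = 0.467). It read 46088, 16763 and 35780 in Chga KO arrays, against 25606, 17319 and 9003 in WT arrays, so the groups overlapped, and it was high in Chga KO replicate 1 and low in Chga KO replicate 2, as was the brighter Ppp1r3c probe set. Its change was 0.52 without WT replicate 3 and 1.36 without Chga KO replicate 2. Slc37a4, which carries glucose 6-phosphate to it, was at 0.01 ± 0.12, and the glucose transporter Slc2a2 at 0.19 ± 0.10.

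The kinases, phosphatases and kinase subunits that switch the pathway gave no call. Gsk3a, a kinase that inactivates glycogen synthase, was at 0.36 ± 0.18 (limma, adjusted p = 0.549). With 1 array left out the Gsk3a change ran from 0.19 without WT replicate 2 to 0.50 without Chga KO replicate 2, and was 0.23 without Chga KO replicate 3. Its relative Gsk3b was at 0.01 ± 0.20. Gsk3b read 1029, 1032 and 985 in Chga KO arrays, against 810, 1100 and 1139 in WT arrays. The beta subunit of phosphorylase kinase, Phkb, was at 0.06 ± 0.15, and the muscle alpha subunit Phka1 at -0.29 ± 0.35 by its brightest probe set and at 0.61 ± 0.41 by its other kept one. The catalytic phosphatase subunit Ppp1cb had 4 probe sets between -0.38 and 0.24, none past the threshold (adjusted p from 0.548 to 0.946).

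**Figure D4:**
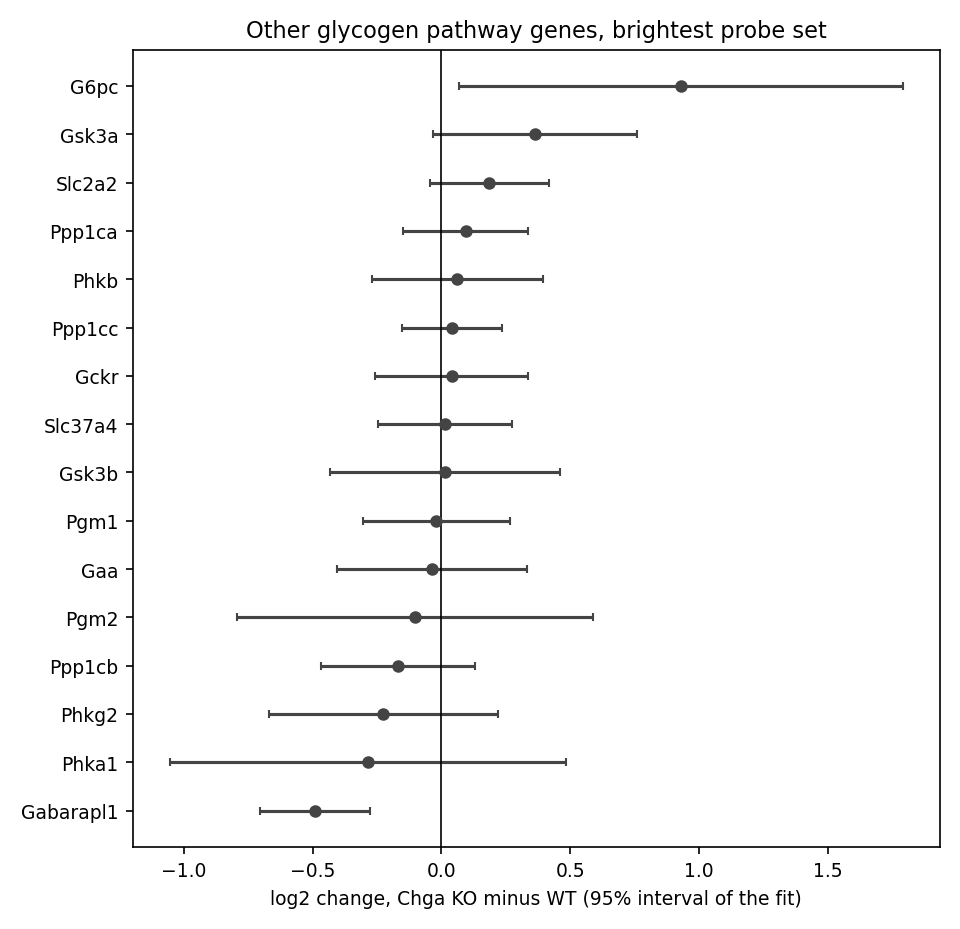
log2 change (Chga KO minus WT) of the 16 kept genes of the wider glycogen list, each by its brightest probe set, with the 95% interval of the limma fit; none had an adjusted p under 0.05. Gabarapl1 at -0.49 and G6pc at 0.93 mark the ends of the range, and both intervals lie off 0.

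The 7 genes of that list that were removed as dim were Gys1, Pygm, Pygb, Phkg1, Ppp1r3a, Ppp1r3f and Epm2a. Gys1 and Pygm encode the muscle synthase and phosphorylase, Pygb the brain phosphorylase. Gys1 ran from 72.5 to 134 in Chga KO and from 51.1 to 349 in WT by its brighter probe set, above the background reference in 0 of 3 Chga KO arrays and 1 of 3 WT arrays. At this signal no change could be measured, with intervals such as -1.81 to 1.33 for Gys1.

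Over the 6 arrays, the 5 single-gene probe sets of other genes whose log2 values followed Gys2 most closely, of 12474 compared, were those of Glyr1 (Pearson's r = 0.996), Retreg1 (0.994), Sgk3 (0.993), Gdap2 (0.991) and Herpud1 (0.984). Gabarapl1 stood at place 8 (0.981) and Stbd1 at place 124 (0.907). None of the 5 named first passed (limma, adjusted p from 0.1555 to 0.706). Retreg1 is a receptor for autophagy of the endoplasmic reticulum, Herpud1 takes part in the degradation of proteins from that compartment, and Sgk3 is a kinase related to Akt. These r describe 6 points in 2 groups that do not overlap for Gys2, so they contain the group difference itself.

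Markers of hepatocytes were bright in every array. By the brightest probe set of each gene, the summed signal of 6 of them ran from 798068 to 886515 in Chga KO and from 732738 to 811253 in WT, and all 6 had a change above 0 with 0 called, while the other probe sets of Hnf4a were at 0.01, -0.13 and -0.20. By the brightest probe set again, of 10 macrophage markers 8 had a change below 0, with a sum from 19019 to 30603 in Chga KO and from 23960 to 31436 in WT, and of 6 stellate cell markers 6 did, with 18518 to 24110 in Chga KO and 21296 to 30059 in WT; 0 of either list passed, and Marco was below the background reference on all arrays. Over all 8047 genes by brightest kept probe set, 4239 had a change below 0. Of the 6 stellate cell markers 4 were kept. The brightest probe sets of Col1a1 (-0.185) and Des (-0.678) were removed as dim, with intervals that include 0. Their other probe sets (0.23 and 0.23), also dim, were above 0. Dcn, the brightest stellate cell marker, overlapped at -0.17. Those of Csf1r were at 0.13 and -0.27, those of C1qb at -0.13 and -0.27, and the dim one of Col3a1 at -0.36. Markers that were lower without overlap were Col3a1, a matrix collagen, at -0.60 (interval -1.01 to -0.20, limma adjusted p = 0.261), Reln at -0.48 (-0.85 to -0.10, 0.376) and Cd68 at -1.40 (-2.89 to 0.09, 0.537). These stand beside -0.64 for Stbd1 and -0.40 for Gys2. Over all genes by brightest kept probe set, 7.84% were lower without overlap. Cd68 read 403, 49.3 and 507 in Chga KO arrays, above the background reference in 2 of 3. Higher without overlap were the hepatocyte marker Cps1 at 0.11 and the dim red cell marker Hba-a1 at 1.65. Of the 8047 genes by brightest kept probe set, 625 were higher without overlap. Hba-a1 was above the background reference in 1 of 3 Chga KO arrays and 0 of 3 WT arrays. The other red cell marker, Alas2, was kept, and its groups overlapped at -0.03 (limma adjusted p = 0.971). Of 6 endothelial markers 4 had a change below 0, with a sum from 7070 to 8765 in Chga KO and from 7712 to 8287 in WT. The part of any cell type in the Stbd1 and Gys2 values was not tested. None of the 5 muscle markers was above the background reference in every array.

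**Figure D5:**
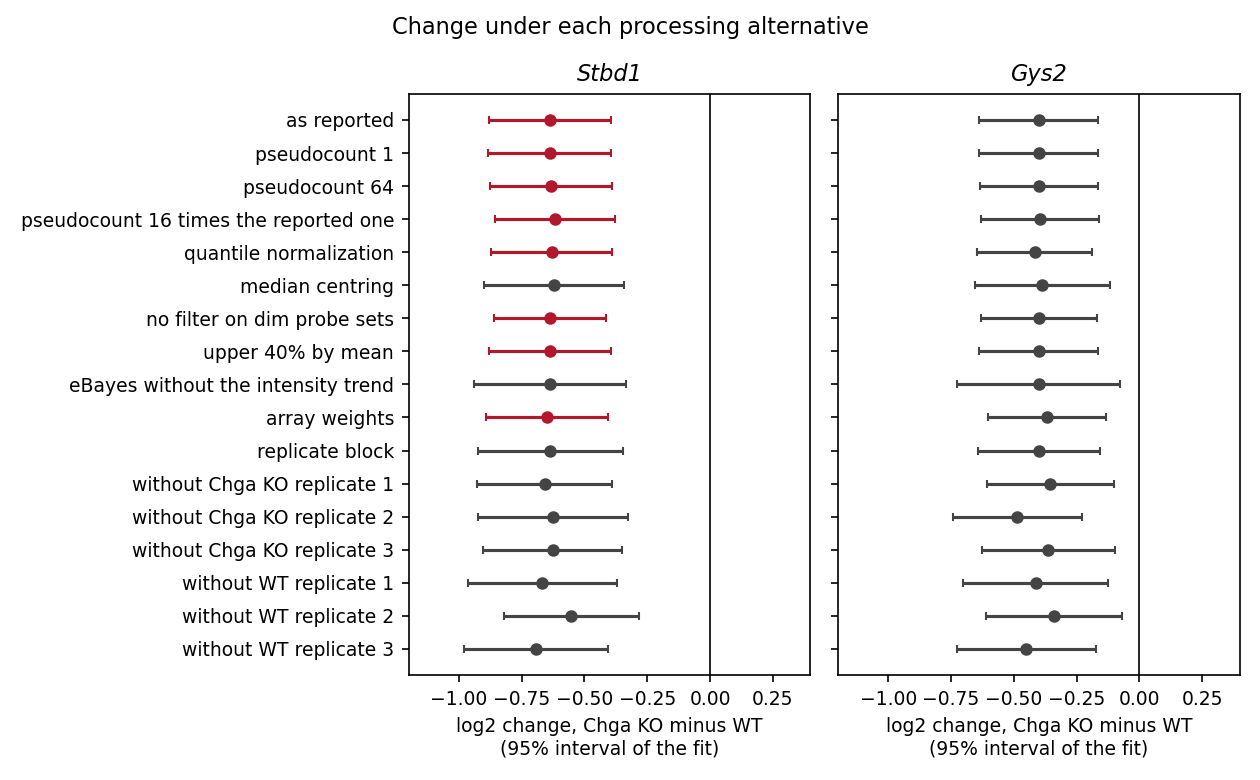
log2 change (Chga KO minus WT) of Stbd1 and Gys2 with the 95% interval of the fit, as reported and under 16 alternatives of the processing; red marks an adjusted p under 0.05. Every point and interval is below 0, Stbd1 is red as reported and in 7 of 16 alternatives, and Gys2 in none.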

How the data were processed

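Total liver RNA was DNase-treated and turned into biotin-labelled cRNA, per the labels' protocols, and the Affymetrix software GCOS 1.2 was used, per the submitters' processing notes. The deposited intensity of each probe set is on a linear scale, with equal trimmed means per array (2501.32 to 2501.42 after trimming 2% at each end). The scaling rule and genome build are not given in the sources used here. After 64 control probe sets were left out, 20380 had 1 gene, 691 several and 1555 none. No probe set with several genes was named, and symbols were updated through RefSeq (GRCm38.p6).

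Log2(intensity + 16) was tested with limma 3.58.1 in R 4.3.3 (eBayes with an intensity trend, no covariate), a procedure also tested on simulated data. The simulated noise depended on mean signal alone, as the trend assumes, so the simulation does not check that choice. The number of arrays limits the precision. No arrays were identical. The glycogen genes, the wider list, the motifs and the tests were chosen with earlier results of these data known. The genes named outside the 9 were those of the wider list past the threshold, the 4 with the largest change, a set of key enzymes (G6pc, Phkb, Gsk3b and Ppp1cb among them; others are not reported here), the 5 most like Gys2, and Chga. Slc37a4, Slc2a2, Gys1 and the other dim genes were added after their values were seen. Alternatives were other pseudocounts, normalizations, filters and variance models, the replicate number as a block, and each array left out.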

Additional observations from a re-analysis of the deposited data

How the results depend on the processing

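Stbd1 stayed lower under all 16 alternatives, but its call was lost with median centring (-0.62, adjusted p = 0.0721), without the intensity trend (-0.64, 0.257), with the replicate number as a block (-0.64, 0.139) and in each fit without 1 array (-0.69 to -0.55, 0.062 to 0.131); the number of called glycogen probe sets was then 0 in place of 1 (0 in all 6 fits without 1 array). Fits without 1 array have fewer samples. The cause of the loss was not tested for any of these alternatives. The replicate block pairs by number only: deviations of same-numbered arrays from their group means correlated at -0.0589, -0.06 and -0.0651. Over all kept probe sets the count of calls was 51, and 85 with a pseudocount 16 times as large, 82 with array weights, 27 with the replicate block, 7 without the trend, and 21 to 57 with 1 array left out (23 without WT replicate 1 and 21 without WT replicate 3). With no filter the calls split into 17 higher and 25 lower, against 26 and 25. In the wider list the count was 0, and 1 with quantile normalization (Gabarapl1).

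The sign turned for 3 glycogen probe sets, none of them called: Ugp2 1434485_a_at (-0.01) was at 0.006 after median centring and between -0.072 and 0.079 with 1 array left out (0.079 without Chga KO replicate 3, 0.021 without WT replicate 2), Pygl between -0.02 and 0.17 (-0.003 without Chga KO replicate 3, -0.023 without WT replicate 3), and Ppp1r3c 1433691_at (0.33) between -0.001 without Chga KO replicate 1 and 0.73. With the upper 40% by mean Gyg was removed and has no value. The other 10 kept glycogen probe sets kept their direction in every alternative that gave a value. Of the kept glycogen probe sets Gyg had the lowest mean signal (percentile 52.0), with an SE of 0.27. The largest SE, 0.31, was that of Ppp1r3c 1433691_at at percentile 81.3.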
